A study of Mus musculus with 13 samples.

Results

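The cytosolic ribosomal protein genes were 46 of the 9669 genes that the probes name singly. They were chosen by symbol alone: the Rpl and Rps genes and the stalk genes Rplp0 to Rplp2, without the Rps6k kinases and pseudogenes. Of these genes 30 belong to the large ribosomal subunit and 16 to the small one, and 55 probes carry them. All 3 independent pairs of RNA sources gave a value for 38 of the 46 (24 large, 14 small), and no filter on the level of a gene was applied.

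The study set the mouse RNA source NT1, which the series title places beside a homozygous Sall4 mutation (Sall4 -/-), against the source TBV. Both were total RNA, and each of 13 two-colour arrays held NT1 in one dye and TBV in the other. Joined by a slash, the pairs of sources were NT1p14/TBVp13 (5 arrays), NT1p12/TBVp12 (4 arrays), NT1 1/TBV2 (2 arrays) and NT1p12/TBVp13 (2 arrays). The last of these shares a source with each of the first 2 and is used as a check. The labels speak of different passages and state no cell type, age, strain or treatment. Whether NT1 or TBV is 1 clone each is also not stated, so values below describe these RNA preparations. The arrays give ratios and no levels, so a defining marker at 0 could not be looked for. In bulk RNA, fewer cells of a type and less RNA per cell cannot be told apart. All values below are log2 ratios of NT1 over TBV unless said otherwise, with the deposited ratio read as Cy5 over Cy3. If it was the reverse, every NT1 over TBV sign turns.

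A ribosome joins a small subunit, which reads the messenger RNA, to a large subunit, which forms the peptide bonds. Cells make the proteins of both subunits in matched amounts, and their messengers are among the most abundant in dividing cells. Most of these messengers begin with a cytidine followed by a run of pyrimidines, the 5′ TOP sequence, through which growth signals set their translation as a group. Because their copies in the genome include many processed pseudogenes of near-identical sequence, a probe for a ribosomal protein gene may bind more than its own transcript, and this was not tested here.

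This sequence was looked for at the annotated gene starts, and most windows did not show it. RefSeq windows of mouse build GRCm38.p6 were found for 38 of the 46 genes. The 6 below run from 40 bases before the annotated start to 20 bases from it on, and are shown for genes whose ratios followed the common pattern (Rps6, Rplp2, Rps4x), ran against it (Rpl15, Rpl27) or followed the dye (Rpl7a). Capitals mark the unbroken run of C and T over the annotated start. A window in lower case throughout has no such run.
Rps6, chr4:86857348-86857407, minus strand: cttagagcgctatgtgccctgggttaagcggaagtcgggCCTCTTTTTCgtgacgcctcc
Rplp2, chr7:141447611-141447670, plus strand: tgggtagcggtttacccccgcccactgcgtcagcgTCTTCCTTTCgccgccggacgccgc
Rps4x, chrX:102189372-102189431, minus strand: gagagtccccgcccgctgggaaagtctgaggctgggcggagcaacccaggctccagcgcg
Rpl15, chr14:18270967-18271026, minus strand: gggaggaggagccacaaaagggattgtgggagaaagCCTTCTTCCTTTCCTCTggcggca
Rpl27, chr11:101442205-101442264, plus strand: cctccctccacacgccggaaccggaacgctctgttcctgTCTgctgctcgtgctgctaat
Rpl7a, chr2:26910767-26910826, plus strand: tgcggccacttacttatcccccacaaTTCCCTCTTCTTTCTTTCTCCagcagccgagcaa

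A run of 7 or more pyrimidines over the start was found in 13 of 45 windows of the ribosomal protein genes (28.9%) and in 5.28% of all 32851 windows. A C at the start with 4 or more pyrimidines after it was found in 15.6% and 2.51%. The letters CCGGAAG, a form of the motif of ETS factors, were searched on both strands of the 300-base windows and found in 42.2% against 8.86%. TATAAA, searched likewise, was found in 6.67% against 13.6%. The length of the pyrimidine run did not follow the direction of the ratios in the 6 genes shown. The run is 10 bases long in Rps6 and 17 in Rpl15, which went opposite ways, and absent in Rps4x. Annotated starts can lie some bases off the true start, so a missing run says only that these letters are not there.

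Part of the decimals of the deposited ratios were missing. Of the 595 values on the probes of these genes 267 were whole numbers as deposited, before centring and within 1e-09 (44.9%), against 19.6% over all genes named singly. The share was lowest in NT1 1/TBV2 (3.92% and 4.17%) and highest on array 4 of NT1p14/TBVp13 (69.8%). A 0 on such an array stands for a range of small ratios. Of the 46 genes 16 kept their decimals wherever they had a value, and 11 of these had a value in all 3 pairs. Sall4 itself lay between -0.82 and 0.39 over 13 arrays and below 0 on 10 of them. The position of its probe relative to the mutation is unknown, so the labels are not tested by these values.

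**Figure D1:**
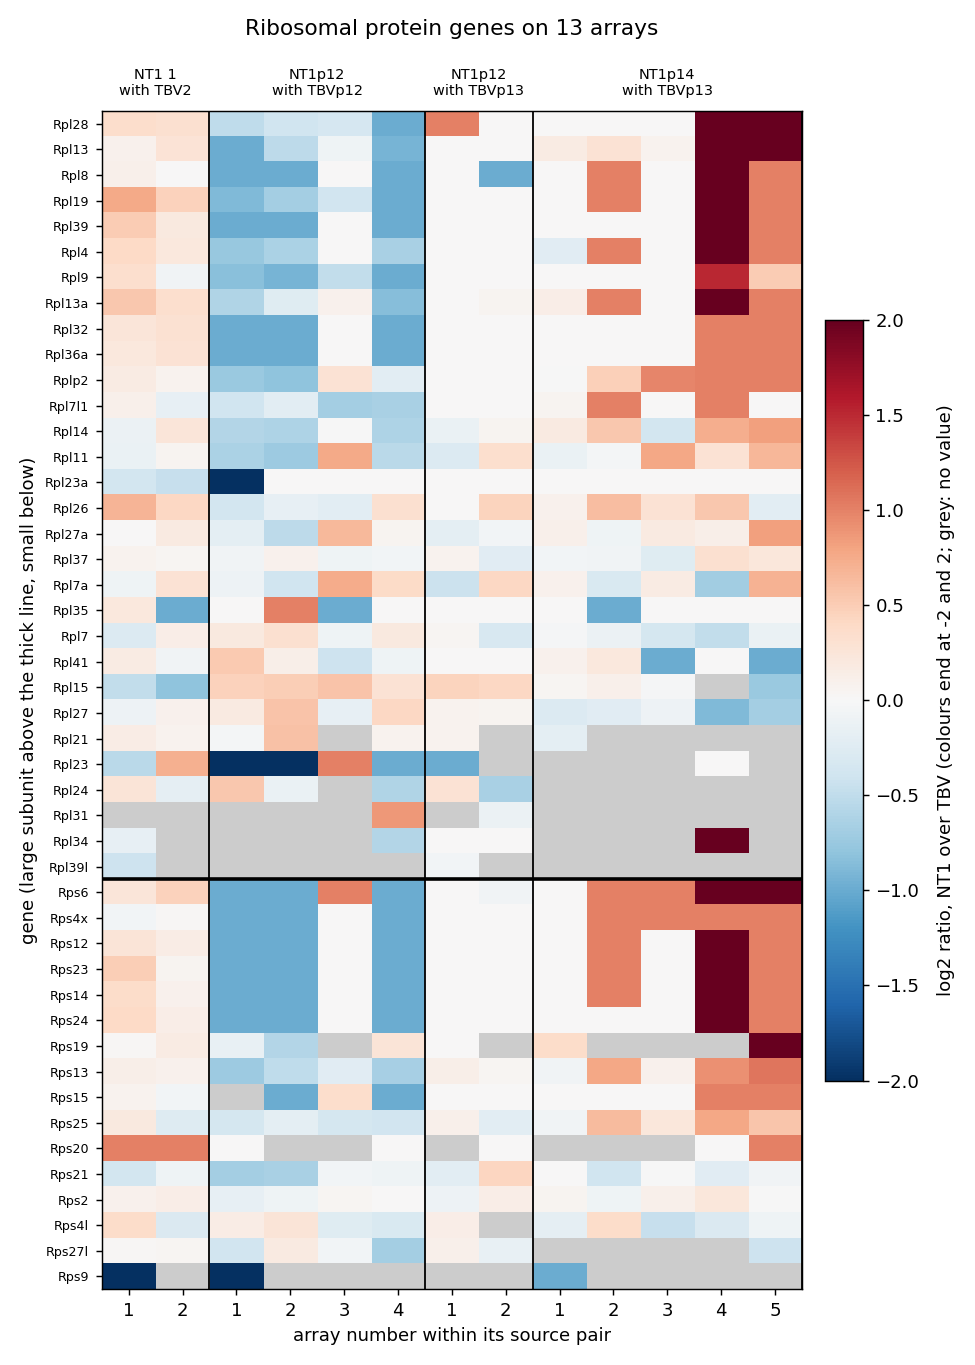
Log2 ratio of NT1 over TBV (colour) for the 46 ribosomal protein genes (rows, large subunit above the thick line) on 13 arrays (columns, grouped by source pair), with missing values in grey. Many rows are blue in NT1p12/TBVp12, white in NT1p12/TBVp13 and red on arrays 4 and 5 of NT1p14/TBVp13. Rpl27 shows the reverse, apart from array 3 of NT1p12/TBVp12. Rpl15 is red in both pairs that hold NT1p12, blue on array 5 of NT1p14/TBVp13 and without a value on array 4.

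The first comparison asked whether the ribosomal protein genes differed between NT1 and TBV over the 3 independent pairs. Their 3-pair means lay around 0, and no test was made over the set. The median of these means was 0.03, with 24 genes above 0 and 14 below, beside a median of 0.00 over all 7978 genes tested. None of the 38 passed the threshold (limma, adjusted p under 0.05), where 0% of all genes passed, and the smallest adjusted p was 1.00. At an unadjusted p under 0.05 there were 0 of the 38, against 90 of 7978 genes (1.13%). In 35 of the 38 genes the SD over pairs was larger than the size of the mean. The 3 exceptions were Rpl23a, Rps21 and Rpl7a.

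That mean hides large pair values of opposite sign. The median over the 38 genes was 0.42 in NT1p14/TBVp13, -0.47 in NT1p12/TBVp12 and 0.10 in NT1 1/TBV2. Of the 38 genes, 28 were above 0 in the first of these pairs and below 0 in the second (73.7%), against 35.7% of all genes, and 4 lay the other way round, against 34.6%. Above 0 in all 3 pairs was 1 gene (Rpl7a), where 8.86% of all genes were, and below 0 in all 3 was 1 (Rps21), where 5.72% were.

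In the small subunit the reversal was largest in Rps6. Rps6, the classical target of the S6 kinases, gave 0, 1, 1, 2 and 2 on the 5 arrays of NT1p14/TBVp13. On the 4 arrays of NT1p12/TBVp12 it gave -1, -1, 1 and -1, and in NT1 1/TBV2 0.24 and 0.46. The groups overlap only through array 3 of NT1p12/TBVp12. Its pair values were 1.25, -0.50 and 0.35, for a mean of 0.37 ± 0.88 (SD, n = 3).

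Rps4x, the X-linked member of the Rps4 family, read 0 and then 1 on 4 arrays of NT1p14/TBVp13, and -1, -1, 0 and -1 in NT1p12/TBVp12. In NT1 1/TBV2 it lay at -0.06 and 0.02, about 0. No array of the first pair lay below an array of the second, and they touch at 0. Rps23, a protein of the decoding centre, read 0, 1, 0, 2 and 1 in NT1p14/TBVp13 and -1, -1, 0 and -1 in NT1p12/TBVp12. The same 9 whole numbers were read by 5 probes (Rpl4, Rpl8, Rps12, Rps14 and Rps23), so the pair values of 0.75 and -0.75 that these probes share are set by the coarse scale.

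Rps25, a protein of the subunit head that internal ribosome entry sites require, kept the decimals of all 13 of its values, as did Rps2 and Rps21, which are described below and did not follow it. Rps25 read -0.07, 0.63, 0.22, 0.78 and 0.56 in NT1p14/TBVp13. It read -0.35, -0.19, -0.35 and -0.39 in NT1p12/TBVp12, 0.19 and -0.25 in NT1 1/TBV2, and 0.10 and -0.20 in NT1p12/TBVp13. Every array of the first pair lay above every array of the second, and the other pairs straddled 0. All 5 arrays above all 4 was seen in 7 of 34 ribosomal protein genes with a value on each, where 7.69% of all genes showed it, and the reverse in 0, where 6.38% did.

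Rps2, a protein at the mRNA entrance, stayed near 0 throughout. Its 13 values ran from -0.17 to 0.22, and its pair values were 0.05, -0.05 and 0.11. Rps21 was the single gene below 0 in all 3 pairs, at -0.12, -0.36 and -0.23, for a mean of -0.24 ± 0.12 (SD, n = 3). It lay below 0 on 11 of 13 arrays, but on 5 of these it was between -0.09 and -0.01. Rps20 had the highest mean, 0.50 ± 0.50 (SD, n = 3), from 7 arrays that all read whole numbers. Rps19, the gene most often mutated in Diamond-Blackfan anaemia, followed at 0.41 ± 0.68 from 8 arrays, where a reading of 2 on array 5 of NT1p14/TBVp13 weighed most. Rps15 had a mean of -0.08 from pair values of 0.42, -0.66 and 0.01. Rps9 had a value on 3 arrays (-5, -2 and -1, each with NT1 in Cy5), so no pair value could be formed.

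In the large subunit the P stalk, where elongation factors dock, was represented by Rplp2. It read about 0, then 0.48, 0.98, 1.00 and 1.00 in NT1p14/TBVp13, and -0.74, -0.81, 0.29 and -0.21 in NT1p12/TBVp12. Array 3 of the latter lay above array 1 of the former, so the groups overlap. Rpl11, which with Rpl5 and 5S rRNA can bind the p53 regulator Mdm2, read -0.64, -0.73, 0.76 and -0.54 in NT1p12/TBVp12, where array 3 stood alone on the positive side. In NT1p14/TBVp13 it read -0.13, -0.05, 0.78, 0.29 and 0.67. Its pair values were 0.38, -0.29 and -0.04.

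Other large subunit genes had pair values of opposite sign too. Rpl19 had pair values of 0.75, -0.74 and 0.61, and Rpl28 of 1.00, -0.56 and 0.34. Rpl28 rested on readings of 3 and 2 on arrays 4 and 5 of NT1p14/TBVp13 against 0 on the others, and its difference between the pairs did not pass (1.54, limma adjusted p = 0.085). Rpl13a had 0.77, -0.41 and 0.44, and the X-linked genes Rpl39 and Rpl36a had 0.58, -0.75 and 0.35 and 0.42, -0.75 and 0.25. Rpl26, whose protein can bind p53 mRNA, had 0.22, -0.11 and 0.55, so its highest pair was NT1 1/TBV2, and it did not pass either (limma adjusted p = 0.22).

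A smaller group of large subunit genes did not follow. Rpl27 read -0.27, -0.23, -0.10, -0.88 and -0.67 in NT1p14/TBVp13, all below 0. In NT1p12/TBVp12 it read 0.18, 0.57, -0.16 and 0.42, and on the other 4 arrays it lay between -0.11 and 0.09. A single array of the second pair, array 3, reached into the range of the first. Rpl15 was near 0 on 3 of 4 arrays of NT1p14/TBVp13 (0.04, 0.11 and -0.02) and at -0.74 on array 5. It lay from 0.29 to 0.56 in NT1p12/TBVp12, at 0.44 and 0.41 in NT1p12/TBVp13, and at -0.48 and -0.80 in NT1 1/TBV2. For Rpl15 the pairs that hold NT1p12 were therefore the high ones and they do not overlap with the others.

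Rpl7 had pair values of -0.22, 0.16 and -0.07, and Rpl41, the smallest ribosomal protein, -0.45, 0.04 and 0.05. Rpl27a had 0.28, -0.01 and 0.09. Rpl35 (mean -0.19 ± 0.20, SD, n = 3) and Rpl23a (mean -0.31 ± 0.27), both at the tunnel rim, rested on whole numbers on 12 and 11 of 13 arrays. Rpl23a read 0 on 10 arrays, and its pair value of -0.50 in NT1p12/TBVp12 came from array 1 alone, at -2.

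Among the paralogues 2 of 4 had a value in all 3 pairs. Rpl7l1, a nucleolar relative of Rpl7, had pair values of 0.34, -0.48 and -0.04. Rps4l had -0.16, -0.04 and 0.04. Of the other two, Rps27l, a p53-responsive paralogue of Rps27, had -0.23 in NT1p12/TBVp12 and 0.03 in NT1 1/TBV2, and Rpl39l had a value on 2 arrays (-0.41 and -0.05). Rpl21 and Rpl24 kept their decimals on 7 arrays each and had no pair value in NT1p14/TBVp13. Their values in NT1p12/TBVp12 and NT1 1/TBV2 were 0.17 and 0.11 for Rpl21 and -0.20 and 0.03 for Rpl24. Rpl31 had 2 values, 0.87 and -0.12.

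**Figure D2:**
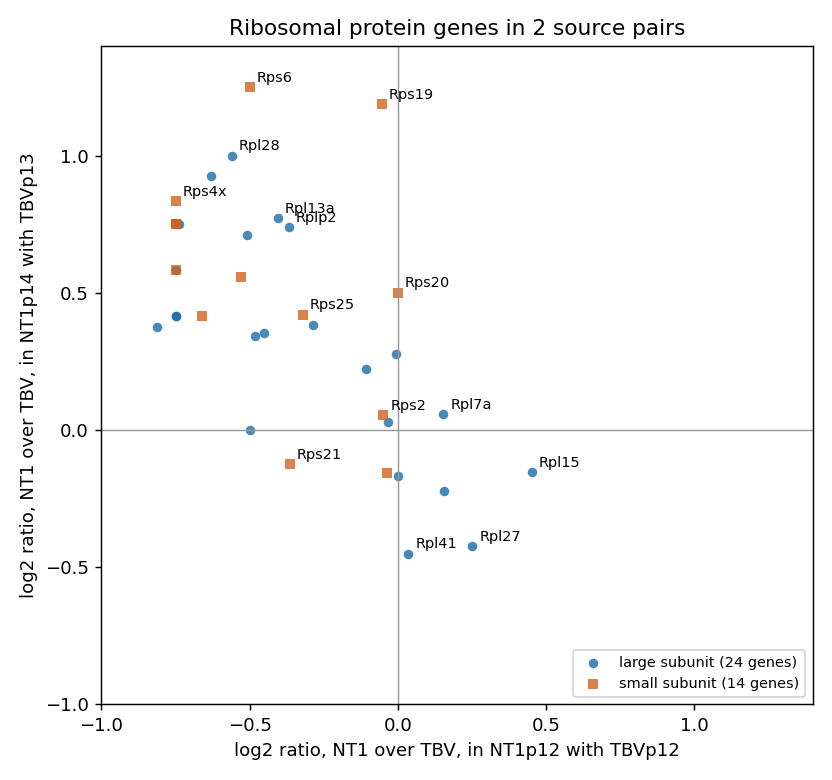
Log2 ratio of NT1 over TBV in NT1p12/TBVp12 (x axis) against NT1p14/TBVp13 (y axis) for the 38 ribosomal protein genes with a value in all 3 pairs, by subunit. The area at the upper left, above 0 in the latter and below 0 in the former, holds 28 genes, and Rpl27 and Rpl15 lie in the lower right.

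The second comparison tested NT1p14/TBVp13 against NT1p12/TBVp12 gene by gene, with a coefficient per source pair and a dye term on all 13 arrays. Of 35 ribosomal protein genes that could be tested, 20 were higher in the former (57.1%), where 12.7% of all 7452 genes were, and 2 were lower (5.71%), where 10.1% were. The median difference was 1.09 in the set and 0.04 over all genes. The repeated arrays of a pair carry the same source labels and were taken to hold the same RNA. These p-values therefore compare 2 pairs of preparations and not passages or genotypes.

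Rps4x rose by 1.58 (SE 0.25, limma adjusted p = 0.011) and Rps6 by 1.75 (SE 0.46, adjusted p = 0.027) between these pairs. Rps25 rose by 0.73 (SE 0.18, adjusted p = 0.024), Rplp2 by 1.10 (SE 0.23, adjusted p = 0.016) and the paralogue Rpl7l1 by 0.85 (SE 0.21, adjusted p = 0.023). Rpl27 fell by 0.68 (SE 0.20, adjusted p = 0.036) and Rpl15 fell by 0.61 (SE 0.18, adjusted p = 0.039). Rpl11, at 0.66 (SE 0.23, limma adjusted p = 0.061), and Rps2, at 0.11 (SE 0.12, adjusted p = 0.48), did not pass. The other genes called higher were Rpl13a, Rpl19, Rpl36a, Rpl39 and Rps23, and, named after their values were seen, Rpl4, Rpl8, Rpl9, Rpl13, Rpl14, Rpl32, Rps12, Rps13, Rps14 and Rps24. All 3 X-linked genes were among the 20, as were 2 of 5 tested genes of the exit tunnel.

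The calls depended on single arrays. The count of 22 called genes fell to 1 without array 1, to 0 without array 2 and to 1 without array 4 of NT1p12/TBVp12, and to 5 without array 5 of NT1p14/TBVp13. The share of all genes called then fell to 1.56%, 0.0539%, 1.38% and 9.83%. None of the 22 kept its call without every single array in turn. Rps4x kept it in 8 of 9 such fits and Rpl19, Rpl7l1, Rplp2 and Rps13 in 6. The median difference of the set stayed between 0.94 and 1.25 in these 9 fits. Without arrays 4 and 5 of NT1p14/TBVp13 together it was 0.76, with 5 genes called, where 7.87% of all genes were. It fell further, to 0.68, with arrays scaled to a common spread and to 0.26 with probes without a whole number.

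Taken alone against 0 in the same fit, NT1p14/TBVp13 had 6 of 35 ribosomal protein genes higher (8.39% of all genes were) and 0 lower (7.17%). The 6 were Rps6, Rps4x, Rpl13a, Rplp2, Rps13 and Rps25. In NT1p12/TBVp12, 0 of 35 were called either way, where 0.0403% of all genes were higher and 0.832% lower. In NT1 1/TBV2, 0 of 35 were called, where 0.0134% were higher and 0% lower. The set's shift in NT1p14/TBVp13 was carried by arrays 4 and 5, with medians of 1 each, against 0, 0.16 and 0 on arrays 1 to 3. On arrays 4 and 5 the ratios of all probes also had the widest spread (SD 1.00 and 1.14, against 0.34 to 0.81 elsewhere), and their part in the result was not tested. With arrays scaled to a common spread, 11 of 35 genes were called, against 5.98% of all.

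NT1p12/TBVp13 shares a source with each of these pairs. There 38 ribosomal protein genes had a pair value, and 19 of these were at exactly 0. The share of all genes at exactly 0 was not counted. Over all probes, 40.4% and 40.3% of the values on its 2 arrays were whole numbers, and the median pair value of all genes was also 0. The genes with every decimal and a value in all 3 independent pairs, apart from Rps4l, which had no pair value here, had 0.43 (Rpl15), 0.23 (Rpl26), 0.11 (Rps21), 0.06 (Rpl27), 0.03 (Rpl11), 0.02 (Rps2), -0.01 (Rpl7a), -0.05 (Rps25), -0.12 (Rpl27a) and -0.14 (Rpl7). All but Rpl15 and Rpl26 lay within 0.14 of 0. For most of these the 2 arrays lay on opposite sides of 0, so a small pair value does not mean small ratios. Rpl7a read -0.42 and 0.41, Rpl11 -0.28 and 0.34, and Rps21 -0.21 and 0.43. Rpl27 and Rpl27a kept 1 sign.

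**Figure D3:**
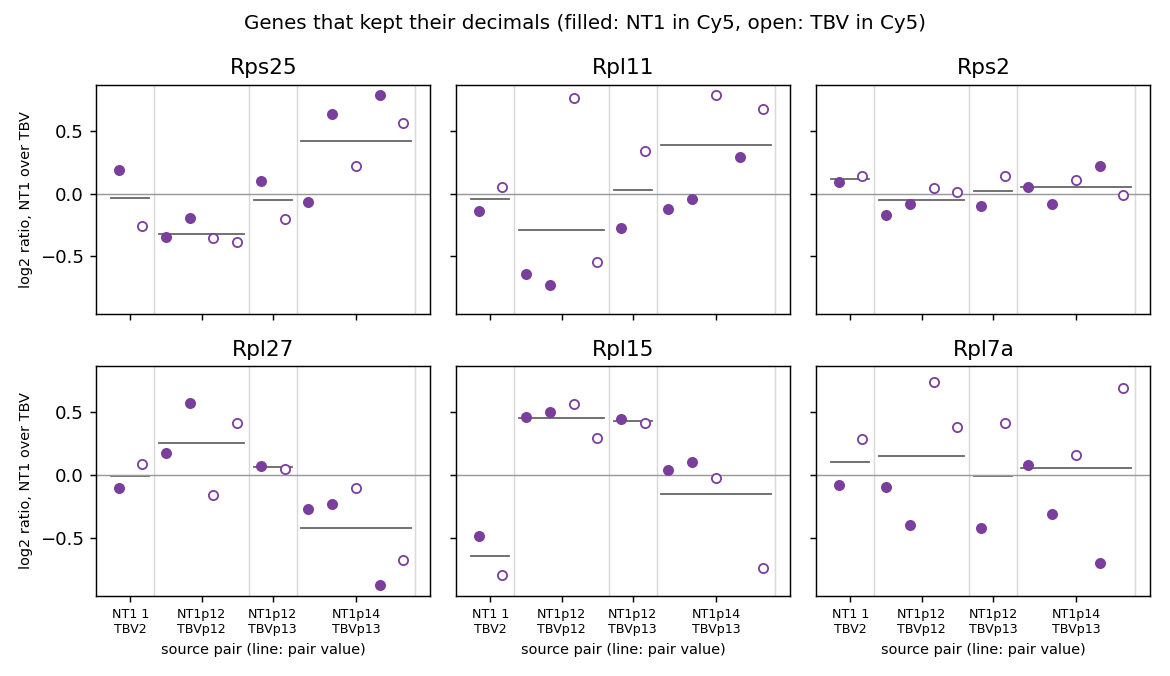
Log2 ratio of NT1 over TBV by array for 6 ribosomal protein genes that kept their decimals, grouped by source pair (filled points, NT1 in Cy5; open points, TBV in Cy5; line, the dye-balanced pair value). Rps25 changes sign from -0.32 in NT1p12/TBVp12 to 0.42 in NT1p14/TBVp13, Rpl27 changes from 0.25 to -0.42, Rps2 stays near 0, and in Rpl7a open points lie above filled ones.

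Genes with decimals and genes with whole numbers differed in the size of their ratios and in how many shared the common direction. The 11 genes that kept every decimal had medians of 0.05 and -0.04 in NT1p14/TBVp13 and NT1p12/TBVp12. Of these 11, 5 were above 0 in the first pair and below 0 in the second, where 35.7% of all genes were. Rpl15, Rpl27 and Rpl7 lay the other way round, where 34.6% of all genes did. Between the pairs 3 were called, with Rps25 higher and Rpl27 and Rpl15 lower, and Rps4l could not be tested. The 27 genes with at least 1 whole number had medians of 0.58 and -0.56. Of these 27, 23 were above 0 in the first pair and below 0 in the second, and Rpl41 lay the other way round. Between the pairs 19 were called, and Rps19 and Rps20 could not be tested. Of all genes tested, 22.9% were called either way. The split was made on the ratios themselves, so it is not independent of them.

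The large and the small subunit were then compared. Their medians ran together: 0.36 and 0.57 in NT1p14/TBVp13, -0.43 and -0.52 in NT1p12/TBVp12, and 0.10 and 0.11 in NT1 1/TBV2. The large subunit minus the small one was -0.21, 0.09 and -0.01 in these pairs, and -0.02 for the 3-pair mean. By array the difference was exactly 0 on 6 of 13, all with medians on whole numbers, and it reached -0.70 on array 2 of NT1p14/TBVp13 and 0.42 on array 2 of NT1p12/TBVp12. Between the 2 pairs 8 of 11 small subunit genes were called higher and 0 lower. In the large subunit 12 of 24 were called higher and 2 lower. Over all genes tested 12.7% were higher and 10.1% lower. Whether the subunits differ in these calls, which single arrays changed, was not tested. Both ribosomal protein genes that fell belong to the large subunit.

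**Figure D4:**
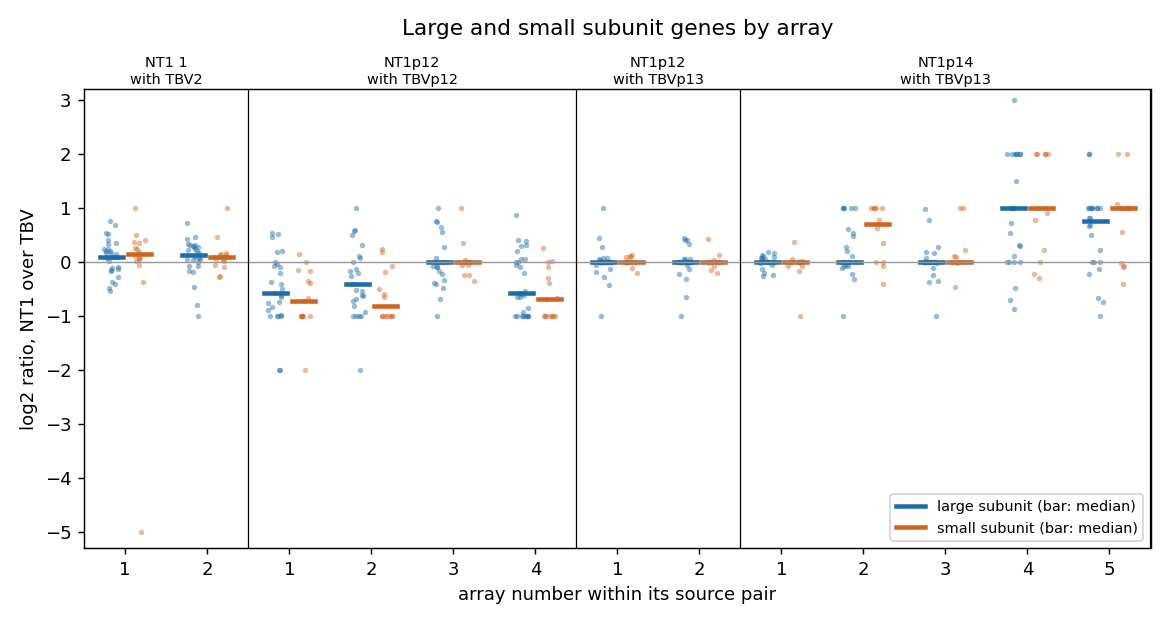
Log2 ratio of NT1 over TBV of each large subunit (blue) and small subunit (orange) gene on each array, with the median as a bar. Both medians are below 0 on arrays 1, 2 and 4 of NT1p12/TBVp12 and at 0.75 or more on arrays 4 and 5 of NT1p14/TBVp13.

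Different probes of a gene did not always give the same picture. Of 8 genes with several probes, 6 had more than 1 probe on 7 or more arrays. The probes of Rpl37 were at 0.46 and -0.36 in NT1p14/TBVp13 and NT1p12/TBVp12 for one, and at -0.40 and 0.29 for the other, so that the gene's average of 0.03 and -0.03 describes neither. The probes of Rpl9 were at 1.00 and -0.25 in NT1p14/TBVp13 and at -0.75 and -0.88 in NT1p12/TBVp12. Those of Rpl14 were at 0.75 and 0.12 in the first pair and -0.78 and -0.12 in the second, and those of Rps13 at 0.83 and 0.28 and at -0.75 and -0.31. For Rpl14 and Rps13 both probes pointed the same way with different size. These 4 genes are uncertain in size, and Rpl37 and Rpl9 also in direction.

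The dye effect was measured as the mean of both orientations, as Cy5 over Cy3. None of the 38 genes passed (limma, smallest adjusted p among them 0.16), where 0% of all genes did. At an unadjusted p under 0.05 there were 7 of 38, where 22.7% of all genes were. Rpl7a, the single gene above 0 in all 3 pairs (0.06, 0.15 and 0.10), had a dye effect of -0.32 ± 0.12 (SD, n = 3). Its NT1 over TBV values ran from -0.70 to 0.08 (median -0.31) on the 7 arrays with NT1 in Cy5 and from 0.16 to 0.73 (median 0.40) on the 6 with TBV in Cy5. The orientations did not overlap. Of the 33 ribosomal protein genes on all 13 arrays Rpl7a was the 1 that lay lower throughout with NT1 in Cy5 (1.09% of all genes did), and 0 lay higher throughout (1.36%).

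Other genes of the translation machinery came from lists put together for this comparison. Of 13 tested genes with other 5′ TOP messengers, 7 were higher in NT1p14/TBVp13 than in NT1p12/TBVp12 and 0 lower, with a median difference of 0.93. Among them the elongation factor gene Eef2 had pair values of 1.09 and -0.22 and the initiation factor gene Eif3h of 2.25 and -1.16. Rpsa, a small subunit protein whose symbol falls outside the rule, had 0.80 and -0.43. Of 17 translation factor genes 7 were higher and 0 lower (median 0.48), and of 19 ribosome biogenesis genes 7 were higher and 2 lower (median 0.43), with the nucleolar genes Nolc1 at 1.77 and -0.63 and Ncl at 0.33 and -1.25. Of 27 proteasome subunit genes 11 were higher and 2 lower (median 0.89). Of 40 mitochondrial ribosomal protein genes 8 were higher and 5 lower (median 0.25). Of the list of S6 kinases and growth control genes 3 could be tested (Larp1, Tsc2 and Mtor, none of them an S6 kinase) and 0 were called. These shares stand beside the 12.7% and 10.1% of all genes given above, and no difference between lists was tested.

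**Figure D5:**
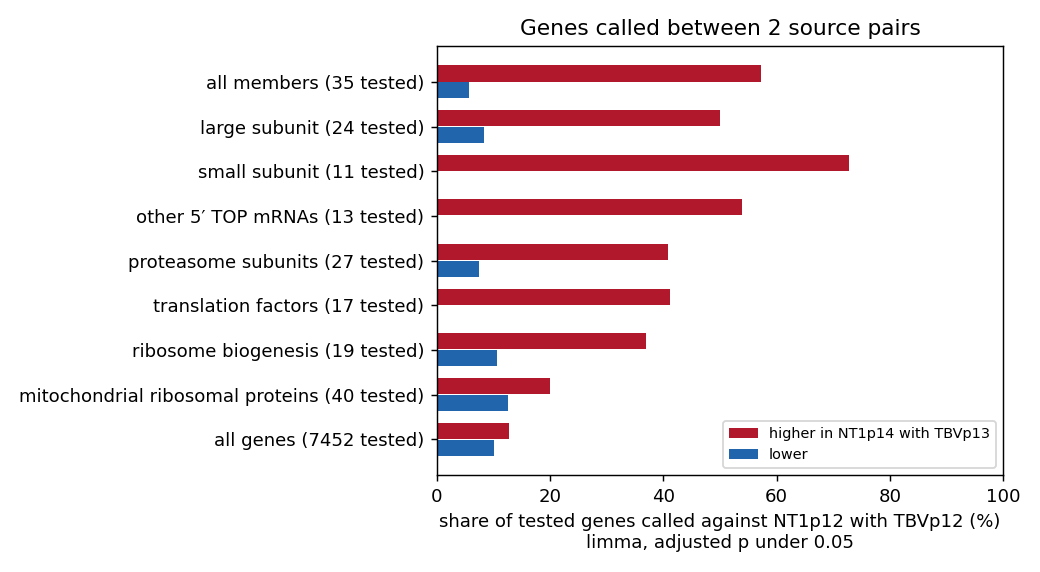
Share of tested genes (percent) called higher (red) or lower (blue) in NT1p14/TBVp13 than in NT1p12/TBVp12, by gene list, in the limma fit at an adjusted p under 0.05. The ribosomal protein genes stand at 57.1% and 5.71%, and all genes at 12.7% and 10.1%.

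Genes listed as markers of fibroblasts and of pluripotent cells also moved between the same pairs. Of 20 fibroblast markers, 13 were measured in all 3 pairs, with medians of 0.46 in NT1p14/TBVp13, -0.19 in NT1p12/TBVp12 and -0.32 in NT1 1/TBV2. By array, the median was taken over those of 15 fibroblast markers with a value there. It ran from 0.07 to 0.59 in the first pair and from -0.31 to -0.11 in the second. In the first pair 6 of 13 were called higher than in the second and 0 lower, where 12.7% and 10.1% of all genes were. On the 2 arrays of NT1 1/TBV2 these array medians were -0.47 and -0.32, while those of the ribosomal protein genes were 0.12 and 0.09. Of 17 pluripotency markers, 12 were measured, with medians of -0.16, -0.56 and -0.22. Their 3-pair mean was below 0 in 11 and above 0 in 1. That of the 13 fibroblast markers was likewise below 0 in 11 and above 0 in 2, where 3972 of all 7978 genes were below 0. Below 0 in all 3 pairs were 6 of 12 pluripotency markers and 2 of 13 fibroblast markers, where 5.72% of all genes were. In both lists 0 were above 0 in all 3. Between the first and the second pair, 6 of 12 pluripotency markers were called higher and 0 lower. Against 0 in NT1p12/TBVp12 alone, 5 of 12 were called lower, where 0.832% of all genes were, and 0 higher. The part of these marker genes in the ribosomal protein result was not tested.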

How the data were processed

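The authors deposited log ratios of both dyes, read here as log2, in 1 table of 20205 probes and 13 arrays. Log base, numerator and normalisation are not given in the sources used here, and log2 was assumed from the range. The set, the lists and the rule for named genes were chosen with earlier results of these data known. That rule took stalk, 5S RNP, X-linked and paralogous genes, the 4 highest and lowest means of each subunit, genes of 1 sign in all pairs, and genes that kept all decimals. Others were named after their values were seen.

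Probes with 1 symbol (11723) were used. Probes with several (806) or none (7676) were left out. Arrays were centred on their median, those with TBV in Cy5 multiplied by -1, and probes averaged per gene. A pair value is the mean of both dye orientations. Arrays with the same source labels were taken as technical repeats, so n = 3, and NT1p12/TBVp13 served as a check. Fits were made in R 4.3.3 (limma 3.58.1), and p-values were adjusted by Benjamini-Hochberg over all genes, with 0.05 as threshold. The fit between pairs needed 2 values in each pair. Both fits were run on simulated ratios with independent normal noise. A log2 change of 1 was recovered in 50% of changed genes between the pairs and 47% over 3 pairs. A change of 2 was recovered in 88% and 80%. The simulated ratios had no whole numbers and no array-wide shifts, so how the fits behave with these was not tested. Alternatives are given in the closing section. The table carries no intensities, and the number of arrays limits the precision. Promoter windows are RefSeq's, build GRCm38.p6. Figures used matplotlib 3.10.9.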

Additional observations from a re-analysis of the deposited data

Results flagged for a closer look

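Arrays far from the others of their pair were looked for in 56 groups of 4 or 5 arrays, and 11 were found. Chance would give about 1 in 20 if the groups were independent and their values normally spread. Neither holds: the genes share arrays and often the same whole numbers, and the medians are taken over the same genes. The count of 11 can therefore not be set against that share. Array 3 of NT1p12/TBVp12 accounts for 7. The median of all ribosomal protein genes was 0 there against -0.62 to -0.53 on the other arrays. Rpl36a, Rpl39, Rps23 and Rps4x read 0 there against -1, Rps6 read 1 against -1, and Rpl11 read 0.76 against -0.73 to -0.54. On array 1 of that pair Rpl23a read -2 against 0. In NT1p14/TBVp13, Rpl15 read -0.74 on array 5 against -0.02 to 0.11, Rpl35 read -1 on array 2 against 0, and Rps4x read 0 on array 1 against 1.

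Of 24 named genes tested, part of them named for their high or low means in these data, 12 passed in the comparison of NT1p14/TBVp13 against NT1p12/TBVp12 (limma on 13 arrays, adjusted p under 0.05), where 12.7% of all genes were higher and 10.1% lower. The difference was 1.75 for Rps6, 1.58 for Rps4x, 1.54 for Rps23, 1.52 for Rpl19, 1.35 for Rpl39, 1.21 for Rpl13a, 1.17 for Rpl36a, 1.10 for Rplp2, 0.85 for Rpl7l1 and 0.73 for Rps25. It was -0.61 for Rpl15 and -0.68 for Rpl27.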

How the results depend on the processing

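The count of 0 ribosomal protein genes past the threshold between NT1 and TBV was also 0 in 29 alternatives, which says little, since 0% of all genes passed in 27 of them, 0.0577% with the pair as a random block and 0.0807% with 13 independent arrays. Their median ranged from -0.30 (NT1p14/TBVp13 turned) to 0.33 (without NT1p12/TBVp12). With single arrays left out it ranged from -0.02 to 0.09. The large minus small subunit difference changed sign: it was -0.19 without NT1p12/TBVp12, 0.10 without NT1p14/TBVp13, 0.09 with that pair turned and 0.03 with TBV in Cy5 only. With single arrays left out it ranged from -0.06 to -0.01. The 22 of 35 genes called for NT1p14/TBVp13 against NT1p12/TBVp12 (22.9% of all genes were) became 11 of 35 with scaled arrays (5.98%), 2 of 38 with the 9 arrays of these pairs only (3.18%), and 6 of 13 with probes without a whole number (24.3%). They became 5 of 35 (7.87%) without arrays 4 and 5 of NT1p14/TBVp13, a setting chosen after seeing the data, as was leaving out probes on fewer than 7 arrays. With single arrays left out the count ranged from 0 to 23. The dye effect, with 0 calls, gave 3 of 14 with probes without a whole number (8.94%). Apart from fewer genes or arrays tested, the cause was not tested. Other background corrections and normalisations were not run, as they need scanner intensities.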

Other observations

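Among the promoter windows of the ribosomal protein genes, CCGGAAG on either strand was found in 5 of 19 windows (26.3%) of genes called higher in NT1p14/TBVp13 than in NT1p12/TBVp12, and in 10 of 14 windows (71.4%) of the other genes tested. A pyrimidine run of 7 or more over the start was found in 21.1% and 42.9%. The windows were split after the values were seen, by calls that single arrays change, and the difference was not tested.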
